A study of Mus musculus with 30 samples.

Results

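The colony-stimulating factor family was followed through 30 libraries: the ligands *Csf1*, *Csf2* and *Csf3* and the receptor genes *Csf1r*, *Csf2ra*, *Csf2rb*, *Csf2rb2* and *Csf3r*. Its 8 genes were taken by symbol from both gene count tables, which hold 17336 genes in all, 13353 for bone marrow (BM) and 17059 for adipose tissue macrophages (ATMs). All 8 members had a row in the ATM table, and 6 had one in the BM table; *Csf2* and *Csf3* were not analysed in BM. Every member row passed the filter on low counts. RNA was sequenced from whole BM cells and from ATMs, which were F4/80+ cells sorted from visceral fat. In both tissues there were 5 groups of 3 libraries. The mice were on a C57BL/6J background and of both sexes, and their listed age was 12 to 14 weeks. The study's methods place irradiation of the recipients near that age, so it may not be their age at harvest. By the study's methods, recipients were lethally irradiated with 700 and 400 cGy and received CD45.2+ BM cells of Shp2E76K/+;LysM-Cre+ donors, mixed with equal numbers of CD45.1+ Boy/J competitor cells. The Shp2E76K/+ allele is an activating mutation of the phosphatase SHP2, and LysM-Cre acts in myeloid cells, so that the mutation is limited to cells in which this Cre has acted. The WT group had wild-type recipients and no listed treatment. The other 4 groups had leptin-deficient, obese *Ob/Ob* recipients, which 8 weeks after transplantation received 30 days of vehicle (Vehicle), of the GLP-1 receptor agonist beinaglutide at 3 mg/kg s.c. (GLP1RA), of an anti–IL-17A antibody at 200 µg per mouse i.p. 3 times weekly (anti-IL17A), or of both agents (Combo). The labels do not give the donor of each single library, and a legend of the study names wild-type donor cells for its WT comparison of ATMs. Genotype of the recipient, treatment and, possibly, donor therefore change together between WT and Vehicle. Each library is described as 1 of 3 biological replicates; whether mice were pooled is not given in the sources used here.

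Colony-stimulating factors are secreted proteins that keep myeloid cells alive and drive their growth and maturation. M-CSF (*Csf1*) acts through the receptor tyrosine kinase CSF1R and is needed by monocytes and macrophages, including those of fat. GM-CSF (*Csf2*) binds a specific α chain (*Csf2ra*) that signals with the common β chain (*Csf2rb*), which is shared with the IL-3 and IL-5 receptors. Mice carry a second β chain gene, *Csf2rb2*, whose product serves IL-3 only. G-CSF (*Csf3*) binds CSF3R and drives neutrophil production and release from the marrow. SHP2 is one of the signal relays below these receptors. Hypersensitivity of progenitors to GM-CSF is a hallmark of juvenile myelomonocytic leukemia, in which activating SHP2 mutations are common. IL-17A is a known inducer of *Csf2* and *Csf3* in stromal and epithelial cells.

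Positions of the genes were read from GENCODE vM21 on the GRCm38 assembly, the build of the count tables. *Csf1* lies on the minus strand at chr3:107741048-107760469, *Csf2* on the minus strand at chr11:54247271-54249667 and *Csf3* on the plus strand at chr11:98701263-98703629. The receptor genes lie at chr19:61223957-61228429 (*Csf2ra*, minus strand), chr15:78325752-78353847 (*Csf2rb*, plus strand), chr15:78282507-78305721 (*Csf2rb2*, minus strand) and chr4:126024550-126044440 (*Csf3r*, plus strand). Values are totals over all exons of a gene. The libraries are unstranded and reads were counted for every gene they overlap. In *Csf1r*, 873 exon bases, 15.1% of its exon length, are shared with exons of *Hmgxb3* on the opposite strand, and reads there cannot be told apart. In *Csf2*, 96 exon bases, 12% of its exon length, are shared with an antisense gene.

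The β chain genes are closely similar neighbours, and reads from stretches that they share cannot be assigned to 1 of them. Their coding sequences were identical at 95.2% of the 2628 bases that aligned. Of all 100-base stretches of the annotated transcripts, 4.63% of those of *Csf2rb* also occur in *Csf2rb2*, and 6.82% the other way. The 120 coding bases below are shown because they hold 16 of the differing positions. Capitals mark bases that differ between the genes, and both are written 5′ to 3′ from GENCODE vM21 transcripts (exon bases at chr15:78338867-78338986, plus strand, and chr15:78294345-78294464, minus strand).
*Csf2rb*: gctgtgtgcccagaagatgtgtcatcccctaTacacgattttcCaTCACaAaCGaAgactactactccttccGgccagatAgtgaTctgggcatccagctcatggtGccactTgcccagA
*Csf2rb2*: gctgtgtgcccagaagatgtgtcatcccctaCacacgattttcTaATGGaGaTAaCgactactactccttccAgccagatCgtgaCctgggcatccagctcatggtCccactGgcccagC

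The 250 bases before the RefSeq start site are shown for *Csf1*, the ligand called in both tissues, and for *Csf3r*, whose changes had opposite signs in the tissues. They were searched on both strands for 5 short motifs: NF-kB (GGGA and CC with any 4 bases between), C/EBP (TTGCNNAA), ETS (AGGAAG), AP-1 (TGANTCA) and STAT (TTCNNNGAA). Of 32851 promoters of the same length, 17.6% held the first, 9.6% the second, 29.5% the third, 6.7% the fourth and 7.0% the fifth. Capitals mark matches, and both sequences are from RefSeq, GRCm38.p6 (chr3:107760470-107760719, minus strand, and chr4:126024409-126024658, plus strand).
*Csf1*: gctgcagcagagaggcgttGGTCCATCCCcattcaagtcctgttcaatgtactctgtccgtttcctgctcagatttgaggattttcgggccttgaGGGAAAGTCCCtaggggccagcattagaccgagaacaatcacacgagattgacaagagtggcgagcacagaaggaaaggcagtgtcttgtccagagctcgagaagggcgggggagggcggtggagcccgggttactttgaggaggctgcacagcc
*Csf3r*: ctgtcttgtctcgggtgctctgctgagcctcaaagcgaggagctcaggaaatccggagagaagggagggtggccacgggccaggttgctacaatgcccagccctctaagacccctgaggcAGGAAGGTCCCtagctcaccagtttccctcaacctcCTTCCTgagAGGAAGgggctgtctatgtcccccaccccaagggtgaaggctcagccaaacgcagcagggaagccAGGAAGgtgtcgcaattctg
The *Csf1* window had NF-kB matches at bases -231 to -222 and, on both strands, at -155 to -145 from the start site. The *Csf3r* window had 4 ETS matches, of which the first, at -130 to -125, overlapped an NF-kB match at -129 to -120; its RefSeq start site lies 109 bases downstream of the GENCODE start. No other motif of the 5 was found in these windows. A match is a run of letters and does not show binding. Promoters of *Csf2*, *Csf2ra* and *Csf2rb2* were also searched: *Csf2* held 1 C/EBP match, *Csf2ra* 2 ETS matches, and *Csf2rb2* 1 ETS and 1 STAT match. The RefSeq start site of *Csf2* lies 232 bases upstream of its GENCODE start, so the bases just before the GENCODE start were not searched.

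Library totals were 31086184 to 39925495 counts in BM and 24876074 to 45300263 counts in ATMs. In BM, WT replicate 1 stood apart from the other WT libraries, with a chi-square per gene of 26.6 to 34.8 against 2.02 to 4.21 for all other pairs of BM replicates; leaving it out changed no call of a member. Levels are given in CPM, a gene's counts relative to the total of its library, after scaling by TMM, edgeR's correction for differing RNA composition. Groups differed in ways that the labels do not state, and these differences move with the comparisons below. The labels call groups matched for sex, yet *Xist*, the RNA of the inactive X chromosome, was at 182 to 193 CPM in BM of Vehicle and at 101 to 105 CPM in BM of Combo, against at most 3.26 CPM in the other 3 groups. In ATMs, *Xist* was at 30.1 to 46.2 CPM in Vehicle and 31.4 to 38.1 CPM in Combo and at most 1.22 CPM elsewhere. The sum of 4 Y-linked genes was at 136 to 167 CPM in BM of the other 3 groups, 64.8 to 66.9 CPM in Vehicle and 11.1 to 12.8 CPM in Combo; in ATMs it was at 159 to 252 CPM in those 3 groups and at 15.1 to 28.9 CPM in Vehicle and Combo. Sex of the cells and group thus cannot be told apart in Vehicle vs WT, in GLP1RA or anti-IL17A vs Vehicle and between Combo and WT or a single agent. Combo and Vehicle both have high *Xist*, but in BM 4 of 5 sex-linked genes were called lower in Combo vs Vehicle, so that sex makeup and group cannot be told apart there either; in ATMs none of the 5 was called in that comparison by edgeR. In these bulk libraries, fewer cells of a type and less RNA per cell cannot be told apart.

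Cell type markers of the ATM libraries were checked because the label says macrophages. All 10 macrophage markers were detected in every group, and their summed level was 4044 to 4264 CPM in WT, 2527 to 2726 in Vehicle, 9999 to 10470 in GLP1RA, 14970 to 15140 in anti-IL17A and 10410 to 10490 in Combo. A large part of these sums was *Lyz2*, with means of 2150 CPM in WT, 928 in Vehicle, 6060 in GLP1RA, 8690 in anti-IL17A and 7120 in Combo. *Adgre1*, which encodes the sorting antigen F4/80, was at 192 to 230 CPM in WT and 30.2 to 52.4 CPM in Vehicle. The mature neutrophil list, with 9 of its 10 genes measured and all 9 detected in every group, summed to 21890 to 23180 CPM in Vehicle and 12880 to 13170 CPM in Combo, against 247 to 255 CPM in GLP1RA and 456 to 477 CPM over WT and anti-IL17A. The ATM libraries labelled Vehicle were thus low in the sorting antigen's RNA and high in neutrophil RNA. Fibroblast and stroma markers, all 8 detected, summed to 6130 to 6517 CPM in Vehicle and 13850 to 24920 CPM in the other groups. Adipocyte markers, all 6 detected, summed to 4003 to 4257 CPM in Vehicle and 1130 to 1302 CPM elsewhere, a difference carried by *Fabp4* (means of 4024 CPM in Vehicle and 997 in WT): in Vehicle vs WT, *Fabp4* was the 1 of 6 called higher, and 3, *Cfd*, *Adipoq* and *Cidec*, were called lower. Pancreatic acinar markers reached 850.5 to 875 CPM in Combo and at most 5.39 CPM in the other groups, and epididymis markers 3429 to 3563 CPM in WT and at most 222 CPM in the other groups. Erythroid markers, with 4 of 6 measured and all 4 detected, summed to 6663 to 6770 CPM in Vehicle and 5271 to 5420 CPM in Combo. Their sums were 3843 to 4068 CPM in WT, 1422 to 1514 in GLP1RA and 1153 to 1174 in anti-IL17A. In Vehicle vs WT, 1 of the 4 was called higher and 1 lower.

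In BM, *Ob/Ob* recipients given vehicle had more *Csf1* and β chain RNA and less *Csf3r* RNA than WT recipients, and *Csf1r* did not pass the test. A member was called where edgeR's quasi-likelihood test gave a Benjamini-Hochberg adjusted p under 0.05 over all genes and the log2 fold change exceeded 1 in size. In Vehicle vs WT, 3 of 6 members rose (*Csf1*, *Csf2rb*, *Csf2rb2*), where 9.44% of all BM genes did, and 1 fell (*Csf3r*), where 10% of all genes did. The 3 treatment comparisons share the Vehicle libraries with each other and with Vehicle vs WT. In GLP1RA vs Vehicle no member rose, against 7.6% of genes, although *Csf3r* had an adjusted p under 0.05, and 2 fell (*Csf1*, *Csf2rb2*), against 9.08%. In anti-IL17A vs Vehicle 1 rose (*Csf3r*; 7.65% of genes) and 1 fell (*Csf1*; 8.46%). Combo vs Vehicle called the same pair, *Csf3r* higher (6.58% of genes) and *Csf1* lower (11.1%).

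*Csf1*, the gene of M-CSF, was the member whose BM level was raised in Vehicle against every other group. It was at 18.5, 19.6 and 17.9 CPM in the WT libraries and at 41.3, 44.1 and 43.1 CPM in Vehicle. It was at 16.4, 15.3 and 15.6 CPM in GLP1RA, 14.9, 16.1 and 15.7 in anti-IL17A and 18.5, 21 and 18.6 in Combo. No Vehicle library overlapped a library of another group. The log2 fold change of Vehicle vs WT was 1.20 ± 0.060 (edgeR adjusted p = 6.09e-21), a 2.29-fold rise. It fell against Vehicle in all 3 treated groups, with log2 fold changes of -1.44 in GLP1RA, -1.46 in anti-IL17A and -1.14 in Combo (largest edgeR adjusted p = 3.01e-20). In the order of the group means, GLP1RA and anti-IL17A, the lowest pair, did not differ beyond their spread (edgeR adjusted p = 0.83), nor did Combo and WT (edgeR adjusted p = 0.471).

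*Csf1r*, the receptor of M-CSF, whose gene lies on chromosome 18, varied least of the members in BM. The WT libraries had 132, 140.1 and 141 CPM and the Vehicle libraries 140.0, 137 and 139.9 CPM. GLP1RA had 104, 99.3 and 103, anti-IL17A 152, 153 and 147 and Combo 116, 116 and 116 CPM. WT and Vehicle overlapped, GLP1RA was lowest and anti-IL17A highest. The log2 difference of Vehicle vs WT was 0.012 ± 0.030 (edgeR adjusted p = 0.736), and the treated groups differed from Vehicle by -0.44, 0.12 and -0.26 in GLP1RA, anti-IL17A and Combo, none past the fold-change limit. Over the same groups, the summed macrophage markers of BM, all 10 detected, were at 13120 to 13390 CPM in WT and 4044 to 4073 CPM in Vehicle, a fall carried by *Lyz2* (means of 12890 and 3462 CPM). Of the 10, 2 were called higher and 2 lower in Vehicle vs WT, with a median log2 fold change of 0.054. The 6 monocyte markers, all detected, summed to 6191 to 6287 and 16390 to 16480 CPM in WT and Vehicle, with 3 called higher and 1 lower. Their part in the *Csf1r* level was not tested.

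The GM-CSF receptor chains had 1 order of groups at its top, Combo, then Vehicle, then anti-IL17A. *Csf2ra*, the ligand-specific α chain, was at 152, 162 and 155 CPM in WT and 228, 229 and 229 CPM in Vehicle. It was at 144, 144 and 146 in GLP1RA, 188, 195 and 191 in anti-IL17A and 247, 256 and 251 in Combo. No groups overlapped, but every difference from Vehicle was under the fold-change limit, with log2 values of -0.66, -0.26 and 0.14, and Vehicle vs WT gave 0.55 ± 0.027 (edgeR adjusted p = 3.3e-21).

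*Csf2rb*, the common β chain, was at 157, 177 and 169 CPM in WT and 448, 441 and 439 CPM in Vehicle. Its levels were 230.3, 228 and 223 CPM in GLP1RA, 308, 303 and 308 in anti-IL17A and 540.5, 556 and 543 in Combo. All 5 groups stood apart, with Combo above Vehicle. Vehicle vs WT gave a log2 fold change of 1.40 ± 0.029 (edgeR adjusted p = 1.85e-33), 2.64-fold. The differences from Vehicle were -0.96 ± 0.029 (edgeR adjusted p = 4.19e-28) in GLP1RA, just under the limit, -0.53 in anti-IL17A and 0.30 ± 0.028 (edgeR adjusted p = 1.51e-12) in Combo.

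*Csf2rb2*, the IL-3-specific β chain, had the largest rise of the members in BM of Vehicle vs WT. Its WT libraries were at 24.8, 29.8 and 27.1 CPM and its Vehicle libraries at 95.6, 95.5 and 98.2 CPM, a log2 fold change of 1.83 ± 0.048 (edgeR adjusted p = 2.4e-30). The treated groups were at 37.4, 38.9 and 41.1 CPM (GLP1RA), 56.7, 54.3 and 55.2 CPM (anti-IL17A) and 126, 122 and 117 CPM (Combo). It fell in GLP1RA vs Vehicle, with a log2 fold change of -1.30 ± 0.045 (edgeR adjusted p = 6.14e-26), while anti-IL17A and Combo differed from Vehicle by -0.80 and 0.34. The ratio of *Csf2rb* to *Csf2rb2* counts within a library was 6.17 ± 0.2 (SD, n = 3) in WT, 4.59 ± 0.108 in Vehicle and 4.49 ± 0.18 in Combo. The ratio of *Csf2ra* to *Csf2rb* was 0.933 ± 0.0344 in WT, 0.517 ± 0.00589 in Vehicle and 0.46 ± 0.00228 in Combo, so that α and β chain RNA did not move in proportion.

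*Csf3r*, the G-CSF receptor of neutrophils and their precursors, was lowest in Vehicle. Its levels were 523, 541 and 524 CPM in WT and 162, 170.2 and 173 CPM in Vehicle. They were 305, 299 and 299 CPM in GLP1RA, 415, 417 and 414 in anti-IL17A and 426, 428 and 429 in Combo. Vehicle stood below and WT above every library of the other groups. Its log2 fold change in Vehicle vs WT was -1.65 ± 0.025 (edgeR adjusted p = 5.76e-39), 3.14-fold lower. It rose in anti-IL17A vs Vehicle by 1.30 ± 0.025 (edgeR adjusted p = 2.12e-35) and in Combo vs Vehicle by 1.34 ± 0.025 (edgeR adjusted p = 7.33e-36); the GLP1RA difference of 0.84 ± 0.025 (edgeR adjusted p = 1.63e-28) missed the limit and passed it, at 1.07, when library totals were used without TMM. All Combo libraries lay above those of anti-IL17A, a difference that did not pass the test (edgeR adjusted p = 0.158). The 9 measured mature neutrophil markers of BM, all detected, summed to 104500 to 112200 CPM in WT and 119100 to 120900 CPM in Vehicle. *S100a8*, *S100a9* and *Ngp* made up most of this sum. By single genes, 1 of the 9 was called lower in Vehicle vs WT (*Retnlg*, -2.74 ± 0.023) and none higher, with a median log2 fold change of -0.35, and in Combo vs Vehicle 5 of 9 were called higher and none lower, with a median of 1.06. The median marker thus had the sign of the *Csf3r* change in both comparisons. It also did in anti-IL17A vs Vehicle, at 0.73. In GLP1RA vs Vehicle it had the other sign, at -0.24, with 1 of 9 called higher and none lower. The sum of the 5 immature granulocyte markers was 1.24-fold lower in Vehicle than in WT. Against Vehicle it was 1.21-fold higher in GLP1RA, 1.60-fold in anti-IL17A and 2.44-fold in Combo. The median log2 fold changes of this list were 0.043 in Vehicle vs WT and -0.052, 0.21 and 1.00 in GLP1RA, anti-IL17A and Combo vs Vehicle. The part of neutrophils in the *Csf3r* level was not tested.

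**Figure D1:**
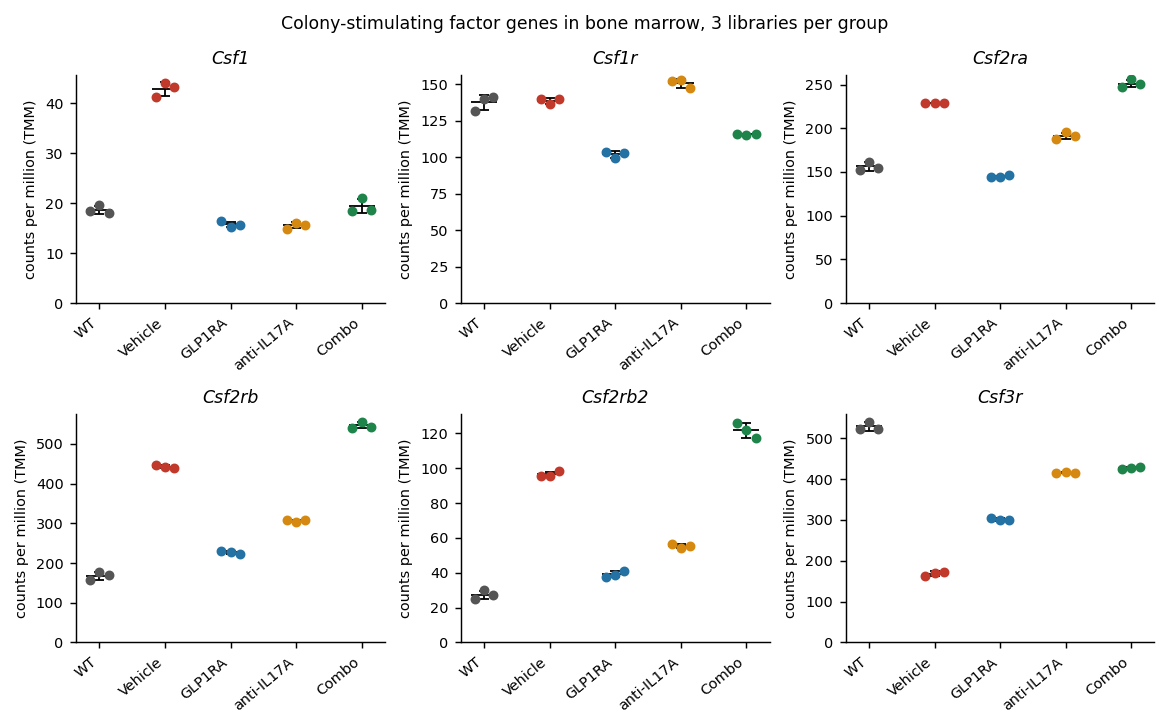
Levels of the 6 members measured in BM, in CPM (TMM-scaled, linear axes from 0), for each library. Points are libraries and bars are group means with SD (n = 3): *Csf1* stands highest and *Csf3r* lowest in Vehicle, and both β chains stand highest in Combo.

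In ATMs the 3 ligands had their highest levels in Vehicle, and *Csf1r* its lowest. In Vehicle vs WT, 4 of 8 members rose (*Csf1*, *Csf2*, *Csf3*, *Csf3r*), where 12.5% of all ATM genes did, and 1 fell (*Csf1r*), where 22.9% did. In GLP1RA vs Vehicle 1 rose (*Csf1r*; 20.8% of genes) and 2 fell (*Csf2*, *Csf3r*; 10.9%). In anti-IL17A vs Vehicle 2 rose (*Csf1r*, *Csf2ra*; 22.4%) and 4 fell (*Csf1*, *Csf2*, *Csf3*, *Csf3r*; 13.1%). In Combo vs Vehicle 1 rose (*Csf1r*; 14.1%) and the 3 ligands fell (12.2%). The median log2 fold change over all ATM genes was -0.21 in Vehicle vs WT, 0.19 in GLP1RA vs Vehicle, 0.17 in anti-IL17A vs Vehicle and 0 in Combo vs Vehicle; in BM these medians lay within -0.017 and 0.021.

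*Csf1* in ATMs was at 317, 347 and 299 CPM in WT and 849, 764 and 819 CPM in Vehicle. It was at 537, 501 and 549 CPM in GLP1RA, 156, 141 and 147 in anti-IL17A and 219, 193 and 196 in Combo. No groups overlapped, and anti-IL17A and Combo lay below WT. Vehicle vs WT gave a log2 fold change of 1.34 ± 0.066 (edgeR adjusted p = 7.85e-11), which was 0.90, under the limit, when library totals were used without TMM. *Csf1* fell against Vehicle in anti-IL17A, with -2.45 ± 0.068 (edgeR adjusted p = 6.24e-14), and in Combo, with -2.0 ± 0.067 (edgeR adjusted p = 8.63e-13), and the GLP1RA difference was -0.62 ± 0.065 (edgeR adjusted p = 8.64e-07).

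*Csf2*, the gene of GM-CSF, had the fewest counts of the members in ATMs. Its levels were 9.94, 8.91 and 9.92 CPM in WT and 48.2, 39.5 and 41 CPM in Vehicle. They were 7.35, 6.94 and 8.73 CPM in GLP1RA, 2.13, 2.74 and 2.62 in anti-IL17A and 3.67, 5.55 and 4.4 in Combo. Vehicle stood above all other libraries, and raw counts ran from 101 to 1197 per library. The log2 fold change was 2.16 ± 0.19 (edgeR adjusted p = 1.06e-07) in Vehicle vs WT. It fell in every treated group against Vehicle, with -2.48 ± 0.20 (edgeR adjusted p = 2.65e-08) in GLP1RA, -4.10 ± 0.21 (edgeR adjusted p = 1.2e-10) in anti-IL17A and -3.24 ± 0.20 (edgeR adjusted p = 1.62e-09) in Combo. The GLP1RA libraries lay below those of WT, a difference that did not pass the test (edgeR adjusted p = 0.21).

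*Csf3*, the gene of G-CSF, had the largest rise of the members in ATMs of Vehicle vs WT. The WT libraries had 25.6, 23.1 and 23.4 CPM and the Vehicle libraries 203, 183 and 197 CPM. GLP1RA had 106, 108 and 118, anti-IL17A 65, 62.7 and 65 and Combo 13, 17.5 and 10.7 CPM. All 5 groups stood apart, and Combo lay below WT. Its log2 fold change in Vehicle vs WT was 3.02 ± 0.13 (edgeR adjusted p = 1.66e-11), 8.09-fold higher. It fell against Vehicle in anti-IL17A, with -1.60 ± 0.12 (edgeR adjusted p = 2.05e-08), and in Combo, with -3.82 ± 0.14 (edgeR adjusted p = 1.84e-12); the GLP1RA difference of -0.81 ± 0.12 (edgeR adjusted p = 3.72e-05) was under the limit. In the same Vehicle libraries the summed fibroblast and stroma markers were at their lowest, with 4 of 8 called lower and none higher than in WT by edgeR. Endothelium markers, all 6 detected, were at their highest there, at 1495 to 1637 CPM against 703.9 to 711.7 CPM in WT. Of these 6, 3 were called higher and 1 lower than in WT. The part of stromal and endothelial cells in the ligand levels was not tested.

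*Csf1r* in ATMs showed the largest change of any member. Its levels were 531, 556 and 553 CPM in WT and 50.0, 54.4 and 38.4 CPM in Vehicle. They were 796, 758 and 800.3 CPM in GLP1RA, 966, 1013 and 1046 in anti-IL17A and 665, 670.0 and 687 in Combo. Vehicle stood far below every other library. The log2 fold change of Vehicle vs WT was -3.52 ± 0.090 (edgeR adjusted p = 2.24e-14), 11.5-fold lower. Against Vehicle it rose by 4.04 ± 0.092 (edgeR adjusted p = 6.76e-15) in GLP1RA, 4.40 ± 0.093 (edgeR adjusted p = 2.3e-15) in anti-IL17A and 3.82 ± 0.091 (edgeR adjusted p = 1.48e-14) in Combo. The mean of the summed macrophage markers was 1.58-fold lower in Vehicle than in WT, with 5 of 10 called lower and 2 higher. Much of that fall was in *Lyz2*, with means of 2150 CPM in WT and 928 CPM in Vehicle. Within that list, *Adgre1* and *Mrc1* were low in Vehicle, at 30.2 to 52.4 and 4.23 to 14.2 CPM against 192 to 230 and 144 to 164 CPM in WT, whereas *Cd68* and *Fcgr1* rose, by 1.01 ± 0.040 and 3.72 ± 0.11 on the log2 scale. *Hmgxb3*, which shares 873 exon bases with *Csf1r*, was at 30.8 to 43.9 CPM in Vehicle, close to the *Csf1r* level there. That value counts all exons of *Hmgxb3*, and reads from the shared bases were not counted apart, so their number is not known. The neutrophil markers were highest in the same Vehicle libraries, and their part in the low *Csf1r* level was not tested.

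Within ATMs, the GM-CSF receptor chains varied less than *Csf1r*. *Csf2ra* was at 60.4, 66.4 and 66.3 CPM in WT, 91, 97.6 and 105 in Vehicle and 111, 119 and 125 in GLP1RA. It was at 249.9, 235 and 239.9 CPM in anti-IL17A and 155, 148 and 157 CPM in Combo, the 2 highest groups. It rose in anti-IL17A vs Vehicle by 1.31 ± 0.067 (edgeR adjusted p = 1.13e-10) on the log2 scale. Vehicle vs WT gave 0.60 ± 0.067 (edgeR adjusted p = 1.41e-06) and Combo vs Vehicle 0.65 ± 0.066 (edgeR adjusted p = 6.31e-07), both under the limit, the second of which was 1.07 without TMM.

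*Csf2rb* was at 105, 118 and 111 CPM in WT, 134, 177 and 177 in Vehicle and 179, 184 and 194 in GLP1RA. It was at 159, 161 and 144 CPM in anti-IL17A and 158, 132 and 166 in Combo. The Vehicle libraries overlapped those of anti-IL17A and Combo, and no treated group passed the test against Vehicle, with edgeR adjusted p of 0.128, 0.581 and 0.466 in GLP1RA, anti-IL17A and Combo. Vehicle vs WT gave 0.55 ± 0.10 (edgeR adjusted p = 0.000343) on the log2 scale, which was 0.11 without TMM (edgeR adjusted p = 0.382). Without TMM, all 3 treated groups had an adjusted p under 0.05 against Vehicle, with log2 differences of 0.41, 0.28 and 0.32 in GLP1RA, anti-IL17A and Combo.

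*Csf2rb2* was at 53.6, 46.4 and 57.5 CPM in WT, 98.3, 109 and 87.9 in Vehicle and 102, 99.7 and 98.5 in GLP1RA. It was at 82.8, 83.4 and 101 CPM in anti-IL17A and 70.0, 69.3 and 63.7 in Combo. WT lay below all other libraries, with a log2 difference of 0.91 ± 0.10 (edgeR adjusted p = 1.86e-06) in Vehicle vs WT, and Combo vs Vehicle gave -0.54 ± 0.10 (edgeR adjusted p = 0.000387), which was -0.12 without TMM (edgeR adjusted p = 0.34). GLP1RA and anti-IL17A gave 0.023 and -0.14 against Vehicle (edgeR adjusted p = 0.871 and 0.237). The ratio of *Csf2rb* to *Csf2rb2* was 2.14 ± 0.354 in WT and 1.67 ± 0.325 in Vehicle (SD, n = 3), with overlapping libraries. The ratio of *Csf2ra* to *Csf2rb* was 0.607 ± 0.0643 in Vehicle, 1.57 ± 0.0998 in anti-IL17A and 1.02 ± 0.0922 in Combo.

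*Csf3r* in ATMs was at 29.4, 27.5 and 29.8 CPM in WT and 85.1, 68.2 and 92.5 CPM in Vehicle. It was at 15.8, 18.7 and 26.7 CPM in GLP1RA, 34.2, 22.6 and 43.6 in anti-IL17A and 95.8, 79.7 and 99.1 in Combo. Vehicle and Combo overlapped and stood above the other 3 groups, which overlapped in part. Vehicle vs WT gave a log2 fold change of 1.5 ± 0.22 (edgeR adjusted p = 2.61e-05). In GLP1RA it fell against Vehicle, with -2.0 ± 0.22 (edgeR adjusted p = 1.53e-06), and in anti-IL17A, with -1.29 ± 0.22 (edgeR adjusted p = 0.000102), a value that was -0.95, under the limit, without TMM; Combo vs Vehicle gave 0.16 ± 0.21 (edgeR adjusted p = 0.576). The neutrophil markers were high in the same Vehicle and Combo libraries and low in the other 3 groups. Their sum was 48.2-fold higher in Vehicle than in WT, while *Csf3r* was 2.83-fold higher, and the part of neutrophils in the *Csf3r* level was not tested.

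Taking both cell-restricted receptors, the ratio of *Csf1r* to *Csf3r* counts within an ATM library was 18.9 ± 1.13 in WT, 0.6 ± 0.192 in Vehicle, 40.3 ± 10.2 in GLP1RA, 32.4 ± 11.1 in anti-IL17A and 7.42 ± 0.846 in Combo (SD, n = 3). The Vehicle libraries were the only ones below 1, and those of Combo lay between Vehicle and WT. In BM the same ratio was 0.261 ± 0.00876 in WT, 0.825 ± 0.0352 in Vehicle and 0.271 ± 0.00154 in Combo. Among the ligands of ATMs, the ratio of *Csf3* to *Csf2* was 2.51 ± 0.131 in WT, 4.55 ± 0.301 in Vehicle, 14.5 ± 1.05 in GLP1RA, 26 ± 3.96 in anti-IL17A and 3.04 ± 0.556 in Combo. Both single-agent groups lay above all Vehicle libraries in this ratio, and Combo lay below them.

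**Figure D2:**
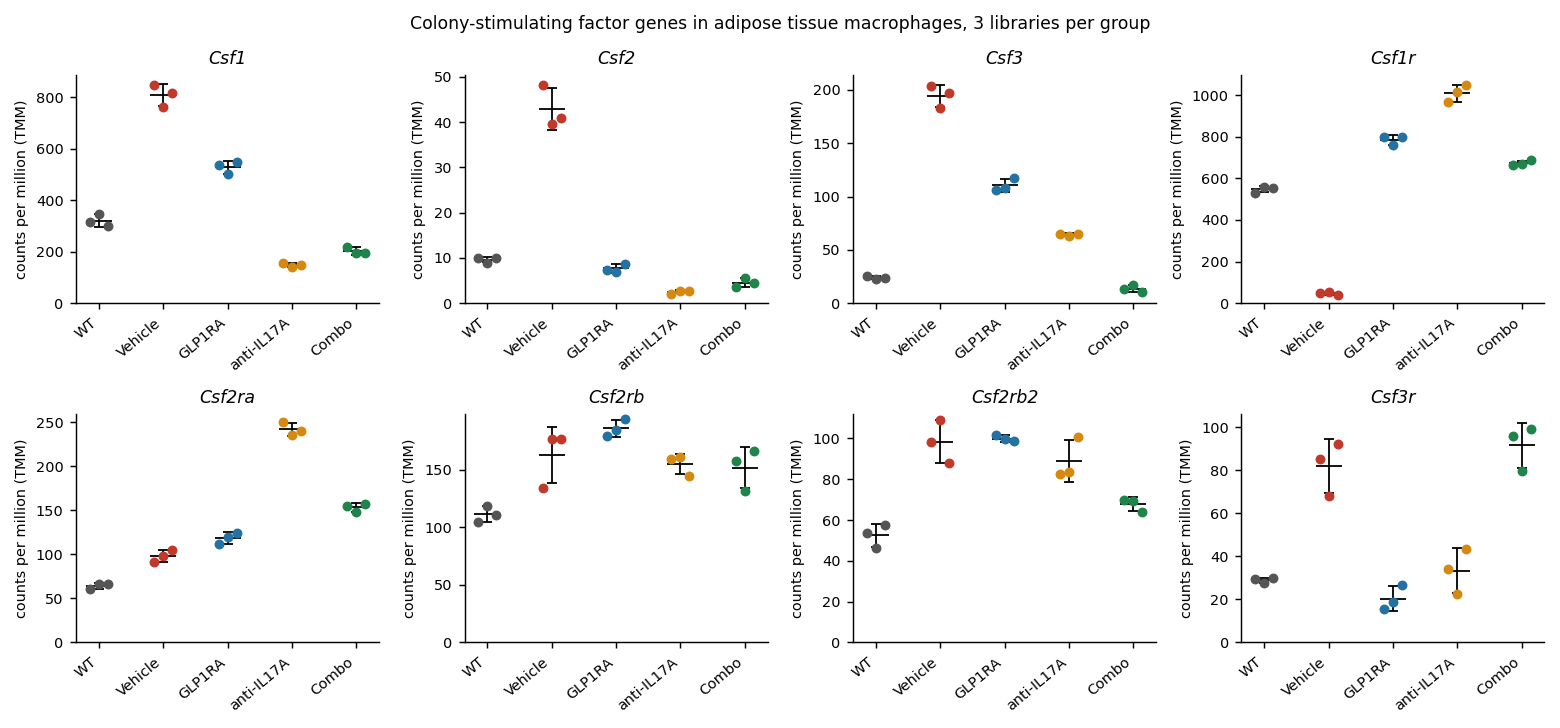
Levels of the 8 members in ATMs, in CPM (TMM-scaled, linear axes from 0), for each library. Points are libraries and bars are group means with SD (n = 3): the 3 ligands stand highest in Vehicle, where *Csf1r* stands lowest, and *Csf3r* is high in Vehicle and Combo.

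**Figure D3:**
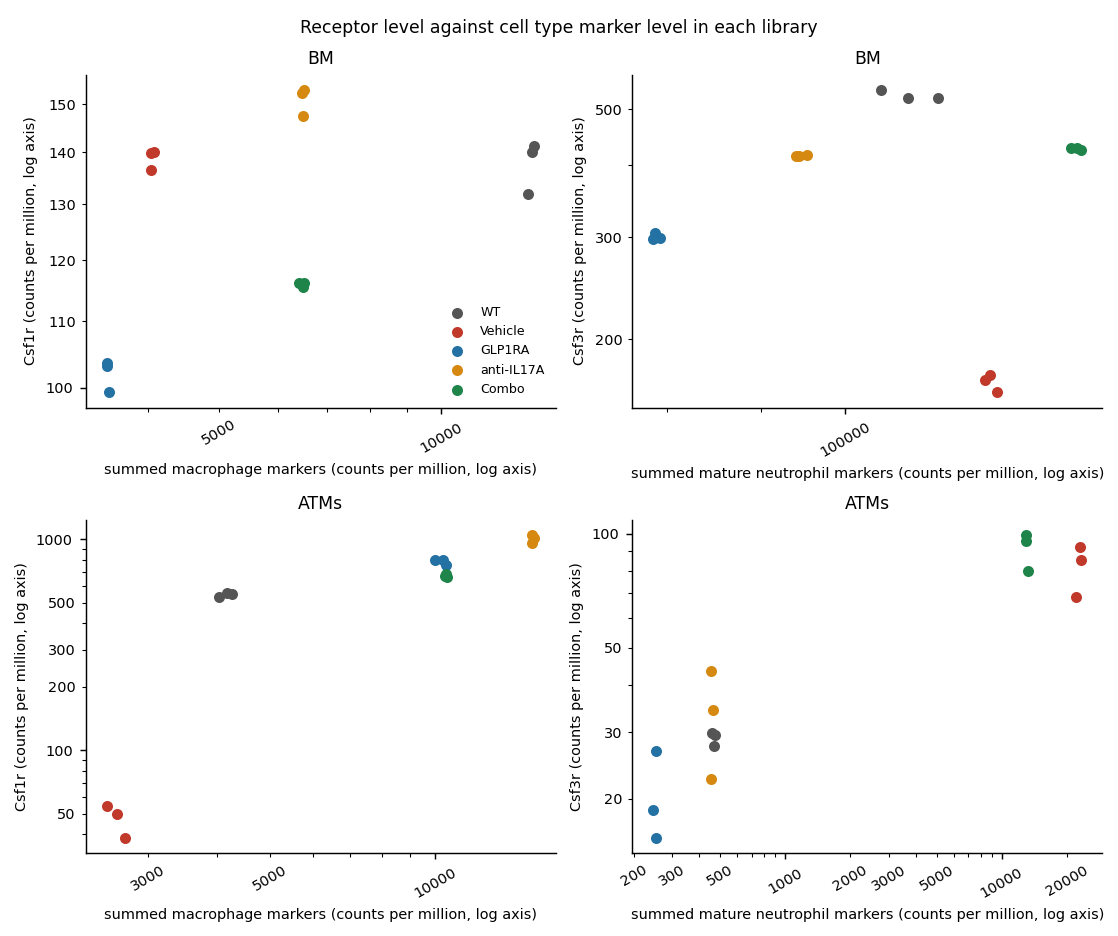
*Csf1r* against the summed macrophage markers and *Csf3r* against the summed mature neutrophil markers, in CPM on log axes, with 1 point per library coloured by group (BM above, ATMs below). In ATMs the Vehicle libraries lie at 38.4 to 54.4 CPM of *Csf1r*, below all others, and in BM the Vehicle libraries lie at the lowest *Csf3r* without being lowest in the neutrophil sum, which a few abundant genes make up.

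**Figure D4:**
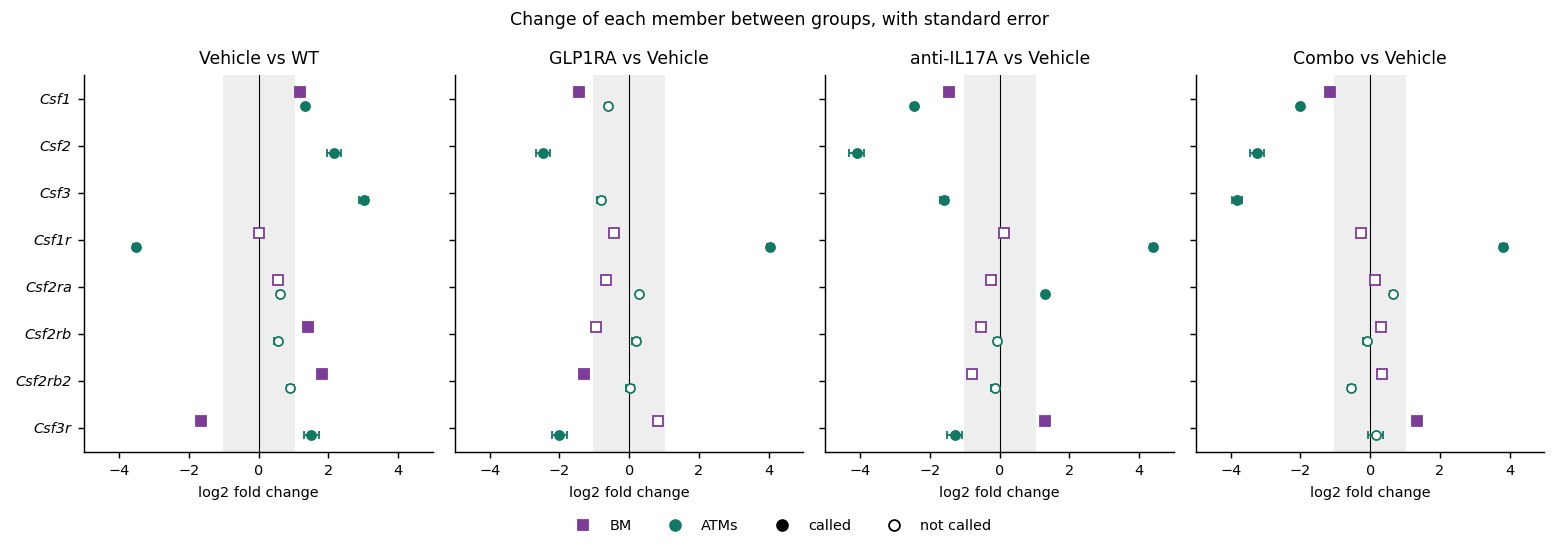
Log2 fold changes with SE of each member in Vehicle vs WT and in the 3 treated groups vs Vehicle (squares, BM; circles, ATMs; filled where called; the grey band marks log2 fold changes of at most 1 in size). *Csf1* is called higher in Vehicle vs WT in both tissues, while *Csf3r* is -1.65 in BM and 1.5 in ATMs.

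The other pairs of groups place the treated mice against WT and against each other. In BM, GLP1RA vs WT called no member by edgeR's test, against 14.7% of genes, although all 6 passed the adjusted p alone. Anti-IL17A vs WT called *Csf2rb2*, with 1.03 ± 0.049 (edgeR adjusted p = 6.13e-21), against 6.32% of genes. Combo vs WT called *Csf2rb* with 1.70 ± 0.029 (edgeR adjusted p = 7.33e-36) and *Csf2rb2* with 2.16 ± 0.047 (edgeR adjusted p = 9.06e-33), against 14.3%. *Csf1* in BM did not differ beyond its spread between Combo and WT, with a log2 difference of 0.052 ± 0.064 (edgeR adjusted p = 0.471). Between treated groups, Combo vs GLP1RA called *Csf2rb* and *Csf2rb2*, higher by 1.27 and 1.64 (13.2% of genes), and Combo vs anti-IL17A called *Csf2rb2*, higher by 1.14 (5.67%). GLP1RA vs anti-IL17A called none (5.83%), with 5 of 6 past the adjusted p alone.

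In ATMs, GLP1RA vs WT called *Csf3*, higher by 2.20 ± 0.13 (edgeR adjusted p = 1.78e-09), against 15.1% of genes. Anti-IL17A vs WT called 4 members, *Csf2ra* (1.91) and *Csf3* (1.42) higher and *Csf1* (-1.12) and *Csf2* (-1.94) lower, against 18.7%. Combo vs WT called 3, *Csf3r* (1.66) and *Csf2ra* (1.25) higher and *Csf2* (-1.08) lower, against 21.6%. *Csf3* was thus called higher than in WT under each single agent, and in Combo it was below WT by a log2 difference of -0.81 ± 0.13 (edgeR adjusted p = 0.000108), under the limit. Combo vs GLP1RA called *Csf3r* higher (2.16) and *Csf1* (-1.38) and *Csf3* (-3.01) lower (18.7% of genes), Combo vs anti-IL17A called *Csf3r* higher (1.45) and *Csf3* lower (-2.23; 14.2%), and GLP1RA vs anti-IL17A called *Csf1* (1.84) and *Csf2* (1.62) higher and *Csf2ra* lower (-1.03; 8.1%).

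Whether the agents added up was asked by comparing Combo with the sum of both single-agent changes on the log2 scale. A value of 0 means that they added. The comparison sets Vehicle and Combo, both high in *Xist*, against the single-agent groups, which were low in it. In ATMs the mature neutrophil markers were split in the same way. Departures from the sum therefore cannot be told apart from these differences. In BM 4 of 6 members departed past both limits, against 21.1% of all genes. *Csf1* lay above the sum by 1.76 ± 0.089 (edgeR adjusted p = 1.34e-20), and the receptor chains *Csf2ra*, *Csf2rb* and *Csf2rb2* lay above it by 1.05 ± 0.038 (edgeR adjusted p = 1.12e-25), 1.80 ± 0.040 (edgeR adjusted p = 3.06e-32) and 2.44 ± 0.063 (edgeR adjusted p = 2.06e-30). For these chains each single agent lay below Vehicle and Combo above it. The departure of *Csf3r* was -0.80 ± 0.035 (edgeR adjusted p = 1.04e-22), and that of *Csf1r* 0.064 ± 0.043 (edgeR adjusted p = 0.188). In ATMs 5 of 8 departed, against 35.9% of genes. *Csf1r* departed by -4.62 ± 0.12 (edgeR adjusted p = 3.81e-14), with levels above WT in both single-agent groups and in Combo. *Csf3r* and *Csf2* lay above the sum by 3.46 ± 0.31 (edgeR adjusted p = 1.44e-07) and 3.34 ± 0.27 (edgeR adjusted p = 4.72e-08), and *Csf1* by 1.07 ± 0.092 (edgeR adjusted p = 8.94e-08). *Csf3* was the member below the sum whose Combo level was also the lowest of all groups, with a departure of -1.41 ± 0.17 (edgeR adjusted p = 5.49e-06).

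In 1 fit of all 30 libraries over the 13076 genes of both tables, the change of a member could be compared between tissues. For Vehicle vs WT, ATMs minus BM, 28.7% of genes were called, and 2 of 6 members were: *Csf1r* with -3.53 ± 0.093 (edgeR adjusted p = 1.77e-21) and *Csf3r* with 3.16 ± 0.22 (edgeR adjusted p = 1.7e-12). The difference for *Csf1* did not pass the test, with 0.14 ± 0.091 (edgeR adjusted p = 0.192). For Combo vs Vehicle, 28.1% of genes were called, and the same receptors were, *Csf1r* with 4.12 ± 0.094 (edgeR adjusted p = 7.76e-23) and *Csf3r* with -1.14 ± 0.21 (edgeR adjusted p = 4.36e-05). Over the mean of the 5 groups, 48.1% of genes differed in level between ATMs and BM. *Csf1* was 16.7-fold and *Csf1r* 3.44-fold higher in ATMs, *Csf3r* was 7.71-fold lower, and the log2 differences of *Csf2ra*, *Csf2rb* and *Csf2rb2* were -0.59, -0.99 and 0.48, under the limit. The tissues were normalized together in this fit, but they differ in cell makeup and in the cell preparation.

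Levels of different genes were compared per kilobase of exon, as group means of CPM. In BM of WT, *Csf3r* was the most abundant member, at 147 CPM per kb, ahead of *Csf2ra* (54.5), *Csf1r* (23.9), *Csf2rb* (23.1), *Csf2rb2* (5.75) and *Csf1* (3.54). In BM of Vehicle, *Csf2ra* led at 79.7, then *Csf2rb* at 60.8, and then *Csf3r* at 46.7 CPM per kb. In ATMs of WT, *Csf1r* (94.7) and *Csf1* (60.8) led, and *Csf3r* was last at 8.01 CPM per kb. The order differed in ATMs of Vehicle, with *Csf1* at 154, *Csf3* at 138 and *Csf2* at 53.6 ahead of every receptor gene and *Csf1r* last at 8.24 CPM per kb. In ATMs of Combo, *Csf1r* led again at 117 and *Csf2* was last at 5.67 CPM per kb.

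**Figure D5:**
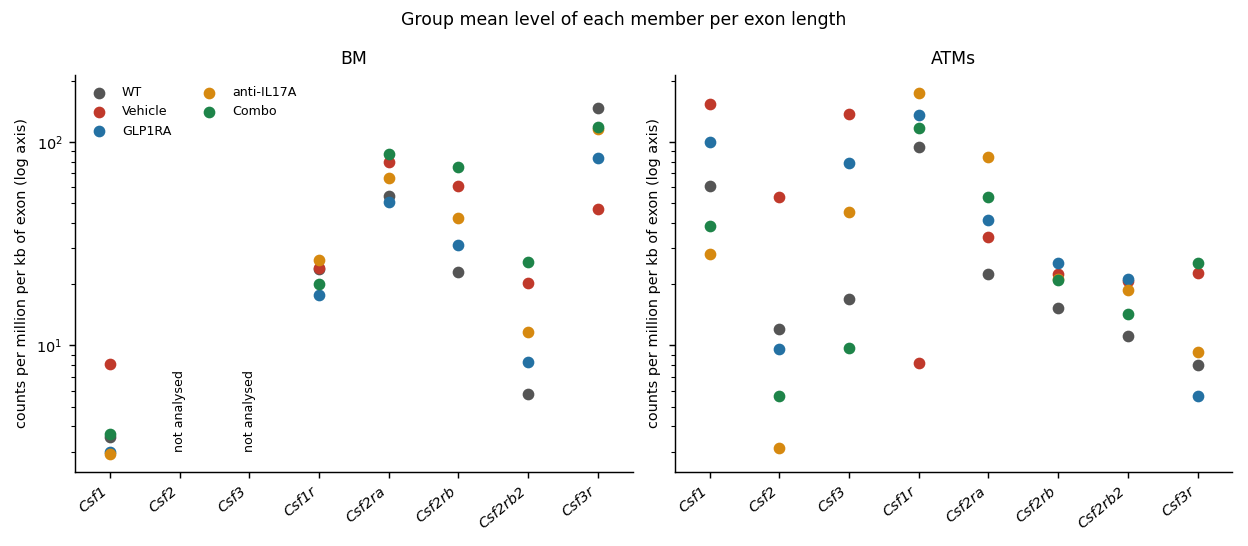
Group means (n = 3) of each member in CPM per kb of exon, on a log axis, in BM (left) and ATMs (right). In BM, *Csf3r* spans 46.7 in Vehicle to 147 in WT, and in ATMs, *Csf1r* spans 8.24 in Vehicle to 175 in anti-IL17A.

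The genes whose levels followed each member most closely over the 15 libraries of a tissue are given as a description, since these libraries form 5 groups and share scaling. In BM, among the 10577 genes that averaged 100 counts or more, *Csf1* was most like *Orm1* (r = 0.994) and *Cdc34* (r = 0.988) by Pearson's r of log2 CPM. *Csf2rb2* was most like its neighbour *Csf2rb* (r = 0.997), and *Csf2rb* was most like *App* (r = 0.998) and *Tgfbi* (r = 0.997). *Csf3r* was most like *Ivd* (r = 0.992) and *Cd300lb* (r = 0.991), *Csf2ra* like *Map7d1* (r = 0.995) and *Esyt1* (r = 0.995), and *Csf1r* like *Anxa6* (r = 0.949) and *Plekhg2* (r = 0.921). In ATMs, among 12613 genes, *Csf1* was most like *Tns1* (r = 0.989), *Csf2* like *Adm* (r = 0.988), *Csf3* like *Gch1* (r = 0.958) and *Csf1r* like *Cfp* (r = 0.992). *Csf2ra* was most like *Ccl9* (r = 0.984), *Csf2rb* like *Gpm6b* (r = 0.906), *Csf2rb2* like *Postn* (r = 0.968) and *Csf3r* like *Sprr2d* (r = 0.959). Second in this order came *Slc43a3*, *Srsf5*, *Rgs16*, *Gm2a*, *Tnip3*, *Fnip2* and *Ywhag* for the first 7 of these members.

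Cytokines known to induce colony-stimulating factors were mostly called higher in Vehicle vs WT. Shares of all genes called, against which the counts of this and the following lists are read, were 9.44% higher and 10% lower in BM and 12.5% and 22.9% in ATMs for Vehicle vs WT, and 6.58% higher and 11.1% lower in BM and 14.1% and 12.2% in ATMs for Combo vs Vehicle. The list holds *Il17a*, *Il17f*, *Il1a*, *Il1b*, *Tnf*, *Il6* and *Ifng*. In BM of Vehicle vs WT, 6 of 7 rose and 1 fell, with a median log2 fold change of 2.22 (-0.017 over all genes). The summed level of the list, however, was lower in Vehicle, at 77.25 to 80.61 CPM against 167.4 to 173 CPM in WT. *Il17a* was at 0 in WT, where 3 counts per library are taken as the floor, and at 0.733 CPM in Vehicle, at least 8.7-fold higher. The largest other changes were in *Il17f* (4.88 ± 0.66), *Il6* (3.23 ± 0.20) and *Il1b* (-3.17 ± 0.044). In Combo vs Vehicle, 1 of 7 rose (*Il1b*) and 5 fell, with a median of -3.99 that was -3.03 with *Il17a* at its bound of at least 8.15-fold lower; *Ifng* (-4.92 ± 0.36), *Il1a* (-4.0 ± 0.42) and *Il6* (-3.99 ± 0.22) had the largest falls.

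In ATMs of Vehicle vs WT, 6 of 7 rose and none fell, with a median of 2.68 (-0.21 over all genes): *Tnf* by 3.57 ± 0.11, *Il17f* by 2.75 ± 0.91, *Il17a* by 2.72 ± 0.68 and *Il1b* by 2.68 ± 0.073. *Il17a* reached 6.65 CPM in Vehicle and 1.00 CPM in WT. In Combo vs Vehicle, *Il6* (-4.04 ± 0.087) and *Tnf* (-2.93 ± 0.10) fell, *Ifng* rose (2.01 ± 0.17) and 4 of 7 were not called, among them *Il17a* at 2.72 against 6.65 CPM. The single agents called 5 of 7 lower in each tissue against the same Vehicle libraries, and 1 higher except for GLP1RA in ATMs. Of all genes, 9.08% (GLP1RA) and 8.46% (anti-IL17A) were called lower in BM, and 10.9% and 13.1% in ATMs. The shares called higher were 7.6% and 7.65% in BM and 20.8% and 22.4% in ATMs.

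Of the related ligands and receptor chains, 3 were called in BM in each of Vehicle vs WT and Combo vs Vehicle, and in ATMs 2 and 3 were. In BM, where 7 of 9 were measured, Vehicle vs WT had higher *Il3ra*, the IL-3 receptor α chain (1.31 ± 0.052), and lower *Kitl*, the stem cell factor gene (-1.51 ± 0.20), and *Il34*, the second ligand of CSF1R (-2.34 ± 0.54), with a median of -0.089. Combo vs Vehicle had higher *Kit* (1.35 ± 0.037) and lower *Il5ra* (-2.07 ± 0.18) and *Flt3l* (-1.22 ± 0.085), with a median of -0.17. In ATMs, where 8 of 9 were measured, *Kit* (2.53 ± 0.14) and *Il3ra* (2.47 ± 0.12) rose in Vehicle vs WT, with a median of 0.062. *Il3ra* (-1.93 ± 0.11), *Kit* (-1.65 ± 0.14) and *Kitl* (-1.11 ± 0.11) fell in Combo vs Vehicle, with a median of -0.93.

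Most of the 17 signal transducers below the receptors were not called. In BM of Vehicle vs WT, 2 rose, the adaptor gene *Gab2* (1.5 ± 0.045) and *Stat3* (1.05 ± 0.025), and none fell; in Combo vs Vehicle none was called. *Ptpn11*, which encodes SHP2, gave 0.40 ± 0.030 in BM of Vehicle vs WT, under the limit. In ATMs of Vehicle vs WT, 3 rose, among them the Src family kinase gene *Fgr* (2.56 ± 0.18) and *Stat3* (1.09 ± 0.059), and none fell, and in Combo vs Vehicle *Pik3cd* rose (1.51 ± 0.12) and *Stat3* fell (-1.21 ± 0.059). The list medians were -0.035 and 0.29 in BM and 0.20 and -0.099 in ATMs for Vehicle vs WT and Combo vs Vehicle, against -0.017, 0.021, -0.21 and 0 over all genes.

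Of 13 negative regulators, which damp these receptors, 3 rose in BM of Vehicle vs WT, the STAT-induced *Socs1* (2.03 ± 0.089), *Cish* (1.53 ± 0.088) and *Socs3* (1.26 ± 0.052), and none fell (median 0.54). Against Vehicle, Combo had lower *Socs1* (-2.74 ± 0.096), *Socs2* (-1.66 ± 0.15) and *Cblb* (-1.34 ± 0.052), and none rose (median -0.57). In ATMs, 2 rose, *Dok1* (2.39 ± 0.15) and *Cblb* (1.19 ± 0.12), and 2 fell, *Dok2* (-1.77 ± 0.10) and *Socs3* (-1.41 ± 0.040), in Vehicle vs WT (median 0.53). In ATMs of Combo vs Vehicle, *Dok2* rose (2.81 ± 0.11) and 4 fell, with *Socs2* (-1.76 ± 0.13), *Socs1* (-1.49 ± 0.11) and *Dok1* (-1.46 ± 0.14) moving most (median -0.56).

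Of 14 myeloid factors that act downstream of or drive these receptors, 4 rose and 3 fell in BM of Vehicle vs WT (median 0.11). Those that moved most were *Klf4* (-2.85 ± 0.067), a monocyte transcription factor gene, *Bcl2a1b* (2.34 ± 0.086), a survival gene, *Egr1* (-1.59 ± 0.035) and *Egr2* (-1.56 ± 0.22). Between Combo and Vehicle, 4 rose and 2 fell (median 0.20), with *Bcl2a1b* (-4.23 ± 0.11), *Klf4* (2.72 ± 0.067) and *Egr1* (2.10 ± 0.034) moving most. In ATMs of Vehicle vs WT, 5 rose and none fell (median 0.76), led by *Cebpe* (2.71 ± 0.51), *Spi1* (2.51 ± 0.048), *Cebpb* (2.43 ± 0.40) and *Bcl2a1b* (1.30 ± 0.089). In Combo vs Vehicle, 2 rose, among them *Gfi1* (1.09 ± 0.34), and 2 fell, *Cebpb* (-1.59 ± 0.39) and *Egr1* (-1.03 ± 0.025) (median -0.41). *Spi1* and *Cebpe*, the factors of granulocyte and macrophage fate, rose in the Vehicle ATM libraries, in which neutrophil markers were highest; their part was not tested.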

How the data were processed

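RNA-seq of whole BM cells and of ATMs gave 30 libraries, 3 in each of 5 groups per tissue, all with the same batch label. The authors aligned paired reads to GRCm38 (mm10) with STAR 2.7.2a and deposited raw counts per gene made with featureCounts 2.0.1 on GENCODE M22, without strand and with reads over several genes counted for each; how mice map to libraries is not given in the sources used here. The deposited counts were analysed per tissue with edgeR 4.0.16 (R 4.3.3, limma 3.58.1): TMM scaling, filterByExpr (which removed no gene), 1 robust quasi-likelihood fit of all 15 libraries, and Benjamini-Hochberg adjustment over all genes. A gene was called at an adjusted p under 0.05 and a log2 fold change over 1 in size. A fit of all 30 libraries compared the tissues. The script was tested on simulated data. Depth was 24876074 to 45300263 counts per library, and replicates of a group differed by more than counting noise. The coefficient of variation between replicates, as edgeR estimated it over all genes, was 3.5% in BM and 32.5% in ATMs. P-values measure the spread between these libraries. Whether that is the spread between single mice cannot be told, which bears most on the very small p-values of BM.

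The members and the gene lists were chosen with earlier results of these data known. Named are all members in each comparison, and per pathway list at most the 4 called genes of largest change in Vehicle vs WT and Combo vs Vehicle; *Ptpn11*, *Hmgxb3*, *Cd68*, *Fcgr1*, *Adgre1*, *Mrc1* and the other single marker genes were added with their values seen. A few genes that this rule names are not reported here. Gene positions, exon lengths and the β chain sequences came from GENCODE vM21, 1 release before that of the counts, and promoters from RefSeq, which held none for *Csf3* and *Csf2rb* here. Sequences were compared with Biopython 1.88. Alternatives were DESeq2 1.42.0, its size factors in edgeR, a stricter and no filter on low counts, fits of the 2 groups compared, a replicate block, no fold-change limit, leaving out each library and, chosen after seeing the data, library totals without TMM.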

Additional observations from a re-analysis of the deposited data

Results flagged for a closer look

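The change of *Csf1r* differed between tissues in the joint fit, by a log2 difference (ATMs minus BM) of -3.53 in Vehicle vs WT and of 4.12 in Combo vs Vehicle. The change of *Csf3r* differed by 3.16 in Vehicle vs WT and by -1.14 in Combo vs Vehicle. These 4 values were singled out because the test of the difference between tissues passed both limits (edgeR, adjusted over 13076 genes). In Vehicle vs WT, *Csf3r* was lower in all 3 BM libraries and higher in all 3 ATM libraries of Vehicle than in any WT library of the same tissue. For single members, groups of 3 libraries were too small to be searched for libraries far from the rest. Over all genes, WT replicate 1 of BM stood apart, as given above.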

How the results depend on the processing

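Counts of called members were within 1.5 times the main counts under every alternative but 1. With no fold-change limit, 6 members were called in BM in each of GLP1RA, anti-IL17A and Combo vs Vehicle, and in ATMs 8 were called in Vehicle vs WT and 6 in GLP1RA vs Vehicle. Directions turned only for values that were not called. *Csf1r* in BM of Vehicle vs WT was -0.11 without TMM and ran from -0.019 without WT replicate 1 to 0.034 without WT replicate 2. *Csf2rb2* in ATMs of GLP1RA vs Vehicle was -0.027 with DESeq2 and with its size factors in edgeR, -0.034 in a fit of these 2 groups, and ran from -0.055 without Vehicle replicate 3 to 0.096 without Vehicle replicate 2. Without TMM, in ATMs, *Csf2rb* was 0.28 in anti-IL17A and 0.32 in Combo vs Vehicle, and *Csf2rb2* was 0.20 in anti-IL17A vs Vehicle. Also without TMM, *Csf1* in ATMs of Vehicle vs WT (0.90) and *Csf3r* in ATMs of anti-IL17A vs Vehicle (-0.95) were no longer past the limit, and *Csf3r* in BM of GLP1RA vs Vehicle (1.07) and *Csf2ra* in ATMs of Combo vs Vehicle (1.07) were. By adjusted p alone, *Csf2rb* in Vehicle vs WT and *Csf2rb2* in Combo vs Vehicle of ATMs no longer passed, and *Csf2rb* of ATMs passed in all 3 treated groups. That setting shifted the median over all genes by -0.44, 0.22, 0.35 and 0.42 in ATMs and by -0.12, 0.23, 0.17 and -0.023 in BM, for Vehicle vs WT and for GLP1RA, anti-IL17A and Combo vs Vehicle.

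The replicate numbers did not pair the samples: deviations of same-numbered libraries correlated at -0.029 to 0.052 in BM and -0.023 to 0.035 in ATMs. With the replicate block, the counts of called members were 4, 2, 2 and 2 in BM and 5, 3, 6 and 4 in ATMs, as without it. Group effects cannot be told apart from what else differed between whole groups, such as the sex-linked genes and the neutrophil and stromal markers given above. Low-count values such as *Il17a* in BM are limited by depth.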

Other observations

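Immature granulocyte markers, all 5 detected, stood highest in Combo in both tissues. In BM they summed to 10530 to 10670 CPM in Combo and to 4296 to 7075 CPM in the other groups. In ATMs they summed to 349 to 372 CPM in Combo and to at most 25.9 CPM in the other groups. T cell markers, with 6 of 7 measured, were highest in ATMs of Combo, at 856 to 860.3 CPM, and lowest in ATMs of Vehicle, at 99.8 to 118 CPM. In BM the T cell markers ran the other way, with 32.6 to 37.1 CPM in Combo and 68.4 to 68.7 CPM in Vehicle.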
